A study of Mus musculus with 16 samples.

Results

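The genes described here were 39 interferon-stimulated genes of the mouse, chosen by symbol, and all 39 were found among the 26625 genes of the count table and measured in the medial prefrontal cortex (mPFC) of 16 mice. The samples were RNA from the mPFC sequenced as full-length cDNA on a nanopore instrument. Each mouse had received an adeno-associated virus in the mPFC, carrying either a control hairpin (labelled shNC and WT) or a short hairpin RNA against Kdm7a, a histone demethylase gene (labelled shKDM7A and KDM7A knockdown), and was then conditioned with morphine or with saline. Of the 4 groups, Kdm7a-shRNA + Saline held 5 mice, Ctrl + Saline 3, and the morphine groups of either virus 4 each. All mice were male C57BL/6, 8 to 10 weeks old at the start, and all carried an injected virus, so that no group showed the cortex without surgery and vector. Morphine was given at 10 mg/kg on alternating days of place conditioning, and the tissue was taken on day 7 of withdrawal. The hairpin was driven by the U6 promoter with EGFP from the CMV promoter on the same vector, so that the knockdown was not restricted to a cell type, and no sort of infected cells is described.

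Averaged over the treatments, the targeted gene was lower with the hairpin (log2 fold change -0.71 ± 0.145 (SE), adjusted p = 0.00154). Levels are given in CPM, the reads of a gene relative to the scaled total of its library. Kdm7a was at 9.78, 9.08 and 9.41 CPM in the Ctrl + Saline mice and 7.79, 6.19, 8.89 and 8.02 CPM in the Ctrl + Morphine mice. With the hairpin Kdm7a was at 5.74, 4.95, 6.04, 6.07 and 4.92 CPM in the Kdm7a-shRNA + Saline mice and 6.28, 4.44, 3.01 and 6.04 CPM in the Kdm7a-shRNA + Morphine mice. The groups did not overlap under saline (-0.76 ± 0.204, adjusted p = 0.0153), and under morphine 1 Kdm7a-shRNA mouse lay above the lowest Ctrl mouse (-0.67 ± 0.206, adjusted p = 0.0506). The libraries held 6596990 to 12418100 counted reads, and the scaling factors for composition were 1.02 to 1.07 in the Ctrl mice and 0.913 to 0.991 in the Kdm7a-shRNA mice.

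Interferons are cytokines of the antiviral response. Type I interferons bind the receptor chains Ifnar1 and Ifnar2, the kinases Jak1 and Tyk2 then phosphorylate Stat2, and it joins Irf9 in a complex that binds the interferon-stimulated response element (ISRE), whereas interferon gamma acts through the gamma-activated site (GAS). The target genes code for sensors of viral RNA, proteins that block viral entry or translation, ubiquitin-like modifiers, and GTPases and peptide transporters of the immune response, and in the brain microglia, astrocytes, endothelial cells and neurons all respond to interferon, with a low level of many targets present without infection.

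Promoter sequences are given because the ISRE and the GAS are the elements through which this pathway is known to act. RefSeq entries for the mouse (GRCm38.p6) gave the 250 bases before a transcription start for 31 of the 39 members. The letters GAAANNGAA, a short form of the ISRE, were present on either strand in 48.4% of these members (15 of 31), against 8.18% of the 27025 genes with an entry. The letters TTCNNNGAA, a form of the GAS that reads the same on the opposite strand, were present in 25.8% of the members (8 of 31), against 8.13% of all genes, and 4 members held both. A match is a string of letters and was not measured as a bound site. Entries for Dhx58, Oas2, Usp18, Ifi27, Parp9, Parp14, Rtp4 and Tap2 were not used here. The promoters below belong to Isg15 and Ifit3, which stand for the classical targets, and to the 5 members that passed the test of the knockdown given further on. Capitals mark the matches, overlapping ones as a single run, and each sequence reads toward the gene.
Isg15 (chr4:156200819-156201068, minus strand): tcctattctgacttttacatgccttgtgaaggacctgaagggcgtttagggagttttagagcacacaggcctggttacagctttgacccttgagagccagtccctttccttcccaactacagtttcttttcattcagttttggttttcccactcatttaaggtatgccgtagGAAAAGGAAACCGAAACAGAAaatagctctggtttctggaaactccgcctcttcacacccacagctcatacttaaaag
Ifit3 (chr19:34583279-34583528, plus strand): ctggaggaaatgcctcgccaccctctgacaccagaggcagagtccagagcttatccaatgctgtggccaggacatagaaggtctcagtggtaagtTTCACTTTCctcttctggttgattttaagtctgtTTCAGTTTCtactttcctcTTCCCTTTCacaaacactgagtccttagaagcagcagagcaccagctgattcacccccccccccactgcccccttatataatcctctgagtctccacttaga
Oas1a (chr5:120907526-120907775, minus strand): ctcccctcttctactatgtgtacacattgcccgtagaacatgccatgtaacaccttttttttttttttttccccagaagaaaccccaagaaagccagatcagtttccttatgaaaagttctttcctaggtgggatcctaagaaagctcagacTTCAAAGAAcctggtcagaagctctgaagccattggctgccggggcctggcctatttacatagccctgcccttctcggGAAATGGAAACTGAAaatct
Trim30a (chr7:104465194-104465443, minus strand): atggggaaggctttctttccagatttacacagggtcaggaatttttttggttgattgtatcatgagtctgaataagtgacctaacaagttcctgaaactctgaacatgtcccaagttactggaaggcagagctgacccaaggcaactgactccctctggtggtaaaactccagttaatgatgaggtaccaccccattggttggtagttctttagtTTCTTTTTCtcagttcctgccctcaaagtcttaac
Irf8 (chr8:120736108-120736357, plus strand): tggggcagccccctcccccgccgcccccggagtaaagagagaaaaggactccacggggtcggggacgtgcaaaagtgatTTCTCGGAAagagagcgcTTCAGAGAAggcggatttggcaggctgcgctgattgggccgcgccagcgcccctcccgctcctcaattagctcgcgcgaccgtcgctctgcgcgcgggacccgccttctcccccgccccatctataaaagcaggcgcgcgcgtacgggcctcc
Ifitm3 (chr7:141010745-141010994, minus strand): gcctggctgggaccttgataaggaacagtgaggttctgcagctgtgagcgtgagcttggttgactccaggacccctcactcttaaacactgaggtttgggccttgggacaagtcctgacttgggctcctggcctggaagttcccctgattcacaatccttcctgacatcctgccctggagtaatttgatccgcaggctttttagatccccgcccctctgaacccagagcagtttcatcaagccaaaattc
Lgals3bp (chr11:118401960-118402209, minus strand): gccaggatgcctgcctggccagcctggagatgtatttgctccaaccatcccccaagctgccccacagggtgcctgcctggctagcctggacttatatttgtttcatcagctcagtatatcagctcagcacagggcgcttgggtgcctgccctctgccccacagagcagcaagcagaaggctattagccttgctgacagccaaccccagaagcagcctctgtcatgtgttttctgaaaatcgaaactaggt
Isg15 and Ifit3 held 3 ISRE-like matches each, those of Isg15 overlapping in 1 stretch and those of Ifit3 apart and on the opposite strand. Oas1a held 2 overlapping ISRE-like matches and 1 GAS-like match, and Trim30a held 1 ISRE-like match. Irf8 held 2 GAS-like matches and no ISRE-like one. Ifitm3 and Lgals3bp held neither string in this window. Irf8 and Trim30a have another entry each, with no match, which is not shown.

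All 39 members passed the filter on low counts and none had a count of 0 in any mouse. Here CPM was not divided by gene length. The highest mean levels over the 16 mice were those of Ifi27 (711 CPM), Ifit3 (500 CPM) and Ifit1 (225 CPM). Ifit3 is a tetratricopeptide-repeat protein. Ifitm3, a membrane protein that blocks viral entry, was at a mean of 71.6 CPM. The lowest mean levels were those of Dhx58 (2.59 CPM) and of Dtx3l, an E3 ubiquitin ligase (3.15 CPM). Ifit3, Oas1a, the Gbp genes and Trim30a have close paralogs, among which reads could be shared, and Parp9 and Dtx3l overlap at their starts on opposite strands of chromosome 16. By GENCODE (GRCm38), the 5 members that passed in at least 1 comparison lie at separate loci, Irf8 at chr8:120736358-120756694, Lgals3bp at chr11:118392751-118402092, Ifitm3 at chr7:141009586-141010770, Trim30a at chr7:104409025-104465193 and Oas1a at chr5:120896256-120907521.

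The members varied between mice of the same group more than the median gene did, and they varied together. The within-group standard deviation of log2 CPM had a median of 0.799 over the 39 members (0.403 to 1.11), against 0.330 over all 18826 tested genes, and 39 of 39 members lay above that median. Ctrl + Morphine mouse 2 had the lowest level of its group for 38 of 39 members. Among the Kdm7a-shRNA + Saline mice, mouse 3 was the highest for 38 members and mouse 4 the lowest for 34, and among the Kdm7a-shRNA + Morphine mice, mouse 3 was the highest for 37 and mouse 4 the lowest for 36. Ctrl + Morphine mouse 1 was the highest of its group for 33 members, and Ctrl + Saline mouse 2 the lowest of its group for 29.

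The average of the members in a mouse was expressed as the mean over the 39 genes of log2 CPM minus the mean of each gene over the 16 mice. It was 0.09, -0.30 and -0.06 in the Ctrl + Saline mice, 0.31, -1.41, -0.21 and -0.09 in the Ctrl + Morphine mice, -0.00061, 0.83, 1.39, -0.64 and 0.75 in the Kdm7a-shRNA + Saline mice, and 0.30, -0.59, 0.84 and -1.21 in the Kdm7a-shRNA + Morphine mice. The 3 Ctrl + Saline mice lay close together. The Ctrl + Morphine group and both Kdm7a-shRNA groups each had values above and values below every Ctrl + Saline mouse. The summed level of the members ran from 1884 to 2372 CPM in the Ctrl + Saline mice, from 900 to 2487 CPM in the Ctrl + Morphine mice, from 1371 to 5760 CPM in the Kdm7a-shRNA + Saline mice and from 1031 to 3461 CPM in the Kdm7a-shRNA + Morphine mice.

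**Figure D1:**
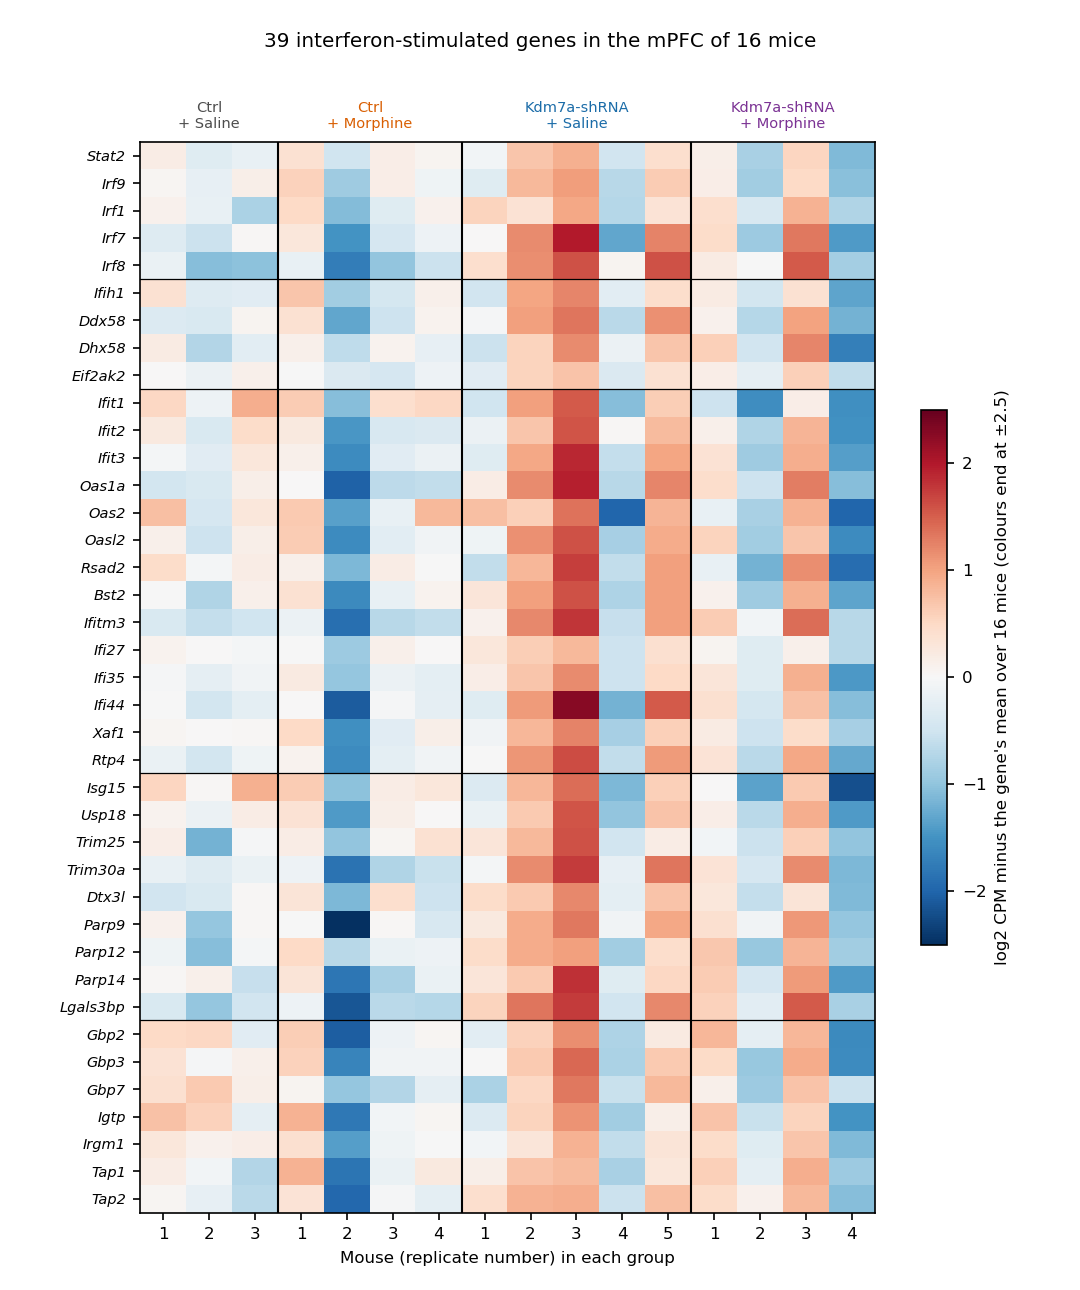
Level of each of the 39 members (vertical axis, ordered by role) in each of the 16 mice (horizontal axis, by group and replicate number), as log2 CPM minus the mean of that gene over all mice, with colours ending at ±2.5. Whole columns shift together, with Ctrl + Morphine mouse 2 and Kdm7a-shRNA + Morphine mouse 4 low and Kdm7a-shRNA + Saline mouse 3 high for nearly all members.

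Marker genes of microglia and of some other cell types moved with the members, and those of others did not. The same average over 14 microglial markers was -0.49, -0.83 and -0.35 in the Ctrl + Saline mice, -0.58, -1.47, -0.81 and -0.71 in the Ctrl + Morphine mice, 0.40, 0.97, 1.52, 0.03 and 1.20 in the Kdm7a-shRNA + Saline mice, and 0.17, -0.05, 1.52 and -0.52 in the Kdm7a-shRNA + Morphine mice. In every group the mouse with the lowest average of the members also had the lowest average of the microglial markers, and in every group but Ctrl + Saline the mouse with the highest average was the same for both lists. The viruses did not overlap in the microglial average within either treatment. The summed level of the 14 markers was 1237 to 1823 CPM in the Ctrl + Saline mice, 752 to 1503 CPM in the Ctrl + Morphine mice, 2504 to 7678 CPM in the Kdm7a-shRNA + Saline mice and 1630 to 7480 CPM in the Kdm7a-shRNA + Morphine mice, and 13 of 14 markers passed as higher with the knockdown under saline and 9 of 14 under morphine. In bulk tissue, fewer cells of a type and less RNA per cell cannot be told apart.

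Markers of other cell types were read in the same way. The averages of the astrocyte markers (-0.53 to 0.71 over the 16 mice), the endothelial markers (-0.48 to 0.73) and the markers of infiltrating blood leukocytes (-0.95 to 1.35) were, like those of the members and the microglial markers, lowest of their group in Ctrl + Morphine mouse 2 and in mouse 4 of both Kdm7a-shRNA groups, and highest in mouse 3 of both Kdm7a-shRNA groups. The pericyte and meningeal average matched in the Kdm7a-shRNA groups but was lowest in Ctrl + Morphine mouse 4 (-0.63). The oligodendrocyte average was lowest in Ctrl + Morphine mouse 4 (-0.69) and Kdm7a-shRNA + Saline mouse 1 (-0.59). In the Kdm7a-shRNA + Morphine mice it was highest in mouse 1 (0.54). In Kdm7a-shRNA + Saline mouse 3 the erythrocyte (-0.75) and striatal (-0.50) averages were the lowest of the group. The average of 8 neuronal markers ran from -0.31 to 0.43, and was 0.43 in Ctrl + Morphine mouse 2, 0.37 in Kdm7a-shRNA + Morphine mouse 4 and -0.30 in Kdm7a-shRNA + Saline mouse 3, opposite to the members. Under saline, 2 of 8 astrocyte markers, 3 of 10 endothelial markers and 1 of 8 pericyte and meningeal markers passed as higher with the knockdown, 0 of 8 oligodendrocyte markers passed, and 1 neuronal marker passed in each direction. Of 12 markers of infiltrating blood leukocytes, 9 could be tested and 1 passed as higher, and the markers Ms4a1, S100a8 and S100a9 each had a count of 0 in at least 1 mouse. Under saline 0 of 5 striatal markers passed, and all 5 erythrocyte markers passed as lower with the knockdown. The summed erythrocyte level was 737 to 1570 CPM in the Ctrl + Saline mice and 380 to 575 CPM in the Kdm7a-shRNA + Saline mice. It was 380 to 682 CPM in the Ctrl + Morphine mice and 322 to 1173 CPM in the Kdm7a-shRNA + Morphine mice. With morphine under the control virus all 5 were also below 0 (median log2 fold change -1.23), and 0 passed. No marker was at 0 in every mouse. The part of these cell types in the results below was not tested, except that the microglial average was entered as a covariate, with values given beside the knockdown.

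**Figure D2:**
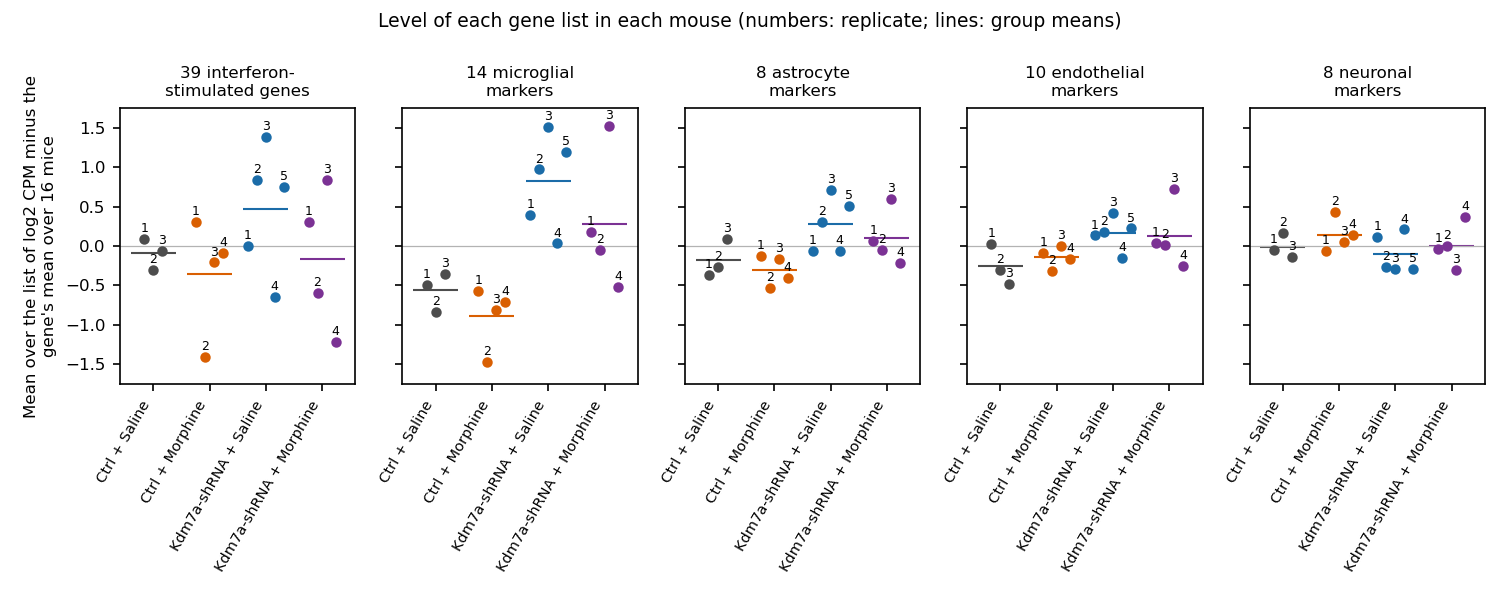
Mean over each gene list of log2 CPM minus the mean of each gene over the 16 mice (vertical axis), for every mouse (points, with replicate numbers) in the 4 groups (horizontal axis), with lines at the group means. In the Kdm7a-shRNA + Saline mice the members run from -0.64 to 1.39 and the microglial markers from 0.03 to 1.52, with mouse 4 lowest and mouse 3 highest in both.

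The effect of the knockdown under saline was asked by setting Kdm7a-shRNA + Saline against Ctrl + Saline. Irf8, Lgals3bp and Ifitm3 rose, 2.69-fold to 3.5-fold, and 0 members fell. To pass, a gene had to reach an adjusted p under 0.05 and to differ by 1.5-fold or more, in edgeR's quasi-likelihood test with Benjamini-Hochberg adjustment over the 18826 tested genes. The 3 of 39 members that passed stand beside 16.7% of all tested genes in either direction and 7.43% as higher, so that their share was near the background. The log2 fold change was above 0 for 37 of 39 members, against 51.3% of all tested genes. Because the members vary together between mice, these like signs, here and below, are not independent results. The median was 0.65 (-0.14 to 1.81) against 0.01 over all tested genes, and it was 0.43 without Kdm7a-shRNA + Saline mouse 3.

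Among the transcription factors, Irf8 was the member with the largest change. Irf8, an interferon regulatory factor that is also a lineage factor of microglia and other myeloid cells, was at 16.9, 8.88 and 9.14 CPM in the Ctrl + Saline mice and 16.6, 5.55, 9.49 and 13.1 CPM in the Ctrl + Morphine mice. With the hairpin Irf8 was at 25.5, 42.9, 57.2, 19.8 and 57.6 CPM in the Kdm7a-shRNA + Saline mice and 21.8, 18.7, 54.9 and 10.5 CPM in the Kdm7a-shRNA + Morphine mice. Under saline the viruses did not overlap, and under morphine 1 Kdm7a-shRNA mouse fell within the Ctrl range. The share of all tested genes without overlap under saline was not computed, so that the lack of overlap does not set Irf8 apart. The log2 fold change was 1.81 ± 0.494 (SE) under saline (adjusted p = 0.0166) and 1.26 ± 0.455 under morphine (adjusted p = 0.0887). Averaged over the treatments it was 1.53 ± 0.335 (adjusted p = 0.00260).

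The 4 other transcription factors did not pass in any comparison. Irf7, which amplifies type I interferon, was at 60.9, 52.2 and 77.8 CPM in the Ctrl + Saline mice and 93.0, 26.8, 56.8 and 70.1 CPM in the Ctrl + Morphine mice. With the hairpin Irf7 was at 77.2, 173, 303, 31.0 and 181 CPM in the Kdm7a-shRNA + Saline mice and 104, 40.6, 191 and 28.6 CPM in the Kdm7a-shRNA + Morphine mice. The highest Kdm7a-shRNA + Saline mouse was 9.77-fold above the lowest, and the Ctrl + Saline mice lay inside that range (log2 fold change under saline 1.27 ± 0.624, adjusted p = 0.159). Stat2 was at 42.2, 30.1 and 32.6 CPM in the Ctrl + Saline mice, 48.2, 26.2, 41.5 and 38.9 CPM in the Ctrl + Morphine mice, 35.6, 59.9, 69.0, 26.5 and 49.8 CPM in the Kdm7a-shRNA + Saline mice and 41.2, 21.2, 53.8 and 17.3 CPM in the Kdm7a-shRNA + Morphine mice. Stat2 carries the activating domain of the complex that binds the ISRE. Irf9, its partner, was at 41.6, 35.1 and 44.8 CPM in the Ctrl + Saline mice, 60.6, 21.8, 45.6 and 37.7 CPM in the Ctrl + Morphine mice, 33.0, 71.1, 84.1, 25.1 and 63.0 CPM in the Kdm7a-shRNA + Saline mice and 45.5, 21.9, 56.9 and 19.5 CPM in the Kdm7a-shRNA + Morphine mice. Both genes overlapped between all groups, with log2 fold changes of 0.46 ± 0.338 for Stat2 (adjusted p = 0.350) and 0.45 ± 0.398 for Irf9 (adjusted p = 0.451) under saline. Irf1, a factor induced by interferon gamma, was at 13.2, 10.7 and 7.02 CPM in the Ctrl + Saline mice and 17.5, 5.66, 9.98 and 13.3 CPM in the Ctrl + Morphine mice. With the hairpin Irf1 was at 18.2, 15.8, 24.3, 7.42 and 15.7 CPM in the Kdm7a-shRNA + Saline mice and 16.5, 9.23, 22.5 and 7.25 CPM in the Kdm7a-shRNA + Morphine mice, with a log2 fold change of 0.65 ± 0.402 under saline (adjusted p = 0.264). Of these 4 factors, Irf7 alone passed in a fit with a mouse omitted, on the average over treatments without Kdm7a-shRNA + Saline mouse 4 (1.05, adjusted p = 0.0408).

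The 4 sensors of RNA, Ifih1, Ddx58, Dhx58 and Eif2ak2, had log2 fold changes of 0.28 to 0.97 under saline and did not pass. Ifih1 (MDA5), a sensor of long double-stranded RNA, was at 6.61, 4.0 and 4.11 CPM in the Ctrl + Saline mice and 8.29, 2.67, 3.65 and 5.56 CPM in the Ctrl + Morphine mice. With the hairpin Ifih1 was at 3.56, 10.3, 12.1, 4.16 and 6.93 CPM in the Kdm7a-shRNA + Saline mice and 5.82, 3.60, 6.62 and 1.88 CPM in the Kdm7a-shRNA + Morphine mice. The groups overlapped throughout (0.60 ± 0.444 under saline, adjusted p = 0.361). Eif2ak2 (PKR), the kinase that halts translation on double-stranded RNA, was at 13.2, 11.9 and 14.3 CPM in the Ctrl + Saline mice and 12.98, 10.1, 9.74 and 12.1 CPM in the Ctrl + Morphine mice. With the hairpin Eif2ak2 was at 10.8, 19.5, 21.8, 10.1 and 17.3 CPM in the Kdm7a-shRNA + Saline mice and 14.9, 11.2, 19.8 and 8.45 CPM in the Kdm7a-shRNA + Morphine mice, with a log2 fold change of 0.28 ± 0.267 under saline (adjusted p = 0.494) and 0.28 ± 0.259 under morphine (adjusted p = 0.538).

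Of the 14 antiviral effectors, Ifitm3 passed under saline and Oas1a on the average over treatments. All 14 had log2 fold changes above 0 under saline, with a median of 0.74, against 51.3% of all tested genes above 0. Ifitm3 was at 43.9, 38.0 and 40.8 CPM in the Ctrl + Saline mice and 52.3, 15.5, 35.3 and 37.4 CPM in the Ctrl + Morphine mice. With the hairpin Ifitm3 was at 61.8, 132, 199, 38.8 and 118 CPM in the Kdm7a-shRNA + Saline mice and 89.5, 54.8, 152 and 35.7 CPM in the Kdm7a-shRNA + Morphine mice. Of the Kdm7a-shRNA + Saline mice, 4 lay above the Ctrl + Saline range and mouse 4 inside it. Its log2 fold change was 1.43 ± 0.495 under saline (adjusted p = 0.0488), 1.24 ± 0.461 under morphine (adjusted p = 0.0970) and 1.34 ± 0.338 on average (adjusted p = 0.00702). Under saline Ifitm3 lost its call with other size factors (adjusted p = 0.0504), with library size alone (0.0627), with a minimum of 10 counts in every mouse (0.0632) and with known genes only (0.0790), and it held in 2 of 8 fits with a mouse omitted.

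Oas1a, an enzyme that makes oligoadenylates on double-stranded RNA and so activates RNase L, was at 32.1, 33.5 and 48.3 CPM in the Ctrl + Saline mice and 44.2, 10.7, 27.9 and 28.8 CPM in the Ctrl + Morphine mice. With the hairpin Oas1a was at 50.3, 100.5, 169, 27.1 and 103 CPM in the Kdm7a-shRNA + Saline mice and 60.1, 30.5, 106 and 20.8 CPM in the Kdm7a-shRNA + Morphine mice. The Kdm7a-shRNA + Saline mice lay on both sides of the Ctrl + Saline mice. Its log2 fold change was 1.24 ± 0.551 under saline (adjusted p = 0.118) and 1.11 ± 0.378 on average (adjusted p = 0.0364). The averaged call was lost with library size alone (adjusted p = 0.0562) and held in 5 of 16 fits with a mouse omitted.

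The most abundant effectors did not pass in any comparison. Ifi27 was at 720.2, 682 and 657 CPM in the Ctrl + Saline mice, 676, 361, 741 and 681 CPM in the Ctrl + Morphine mice, 834, 1039, 1194, 473 and 899 CPM in the Kdm7a-shRNA + Saline mice and 711, 549.7, 741 and 424 CPM in the Kdm7a-shRNA + Morphine mice. Ifit3 was at 399, 341 and 502 CPM in the Ctrl + Saline mice, 453, 139, 339.9 and 376 CPM in the Ctrl + Morphine mice, 336, 806, 1525, 274 and 818 CPM in the Kdm7a-shRNA + Saline mice and 528, 222, 778 and 159 CPM in the Kdm7a-shRNA + Morphine mice. Both were highest in Kdm7a-shRNA + Saline mouse 3, and their Kdm7a-shRNA + Saline mice lay on either side of the Ctrl + Saline mice. The log2 fold changes under saline were 0.37 ± 0.256 for Ifi27 (adjusted p = 0.324) and 0.86 ± 0.535 for Ifit3 (adjusted p = 0.269). Ifit1, which binds RNA that lacks a methylated cap, was at 270.3, 173 and 353 CPM in the Ctrl + Saline mice and 291, 89.8, 250.4 and 269 CPM in the Ctrl + Morphine mice. With the hairpin Ifit1 was at 133, 382, 546, 89.8 and 287 CPM in the Kdm7a-shRNA + Saline mice and 131, 64.3, 212 and 64.8 CPM in the Kdm7a-shRNA + Morphine mice. Its Kdm7a-shRNA + Morphine mice lay mostly below the Ctrl + Morphine mice, of which mouse 2 overlapped with them. The log2 fold change of Ifit1 was 0.12 ± 0.508 under saline (adjusted p = 0.897) and -0.93 ± 0.496 under morphine (adjusted p = 0.253). Bst2 (tetherin), which holds budding virions at the cell surface, was at 66.3, 39.5 and 73.0 CPM in the Ctrl + Saline mice and 87.3, 22.1, 59.0 and 71.0 CPM in the Ctrl + Morphine mice. With the hairpin Bst2 was at 83.2, 138, 202, 39.1 and 137 CPM in the Kdm7a-shRNA + Saline mice and 72.0, 36.3, 125 and 26.7 CPM in the Kdm7a-shRNA + Morphine mice (1.01 ± 0.517 under saline, adjusted p = 0.176). The other effectors were Ifit2, Oas2, Oasl2, Rsad2, Ifi35, Ifi44, Xaf1 and Rtp4, and the widest range within a group was that of Oas2, 13.2-fold between the lowest (0.675 CPM) and the highest (8.89 CPM) Kdm7a-shRNA + Saline mouse.

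**Figure D3:**
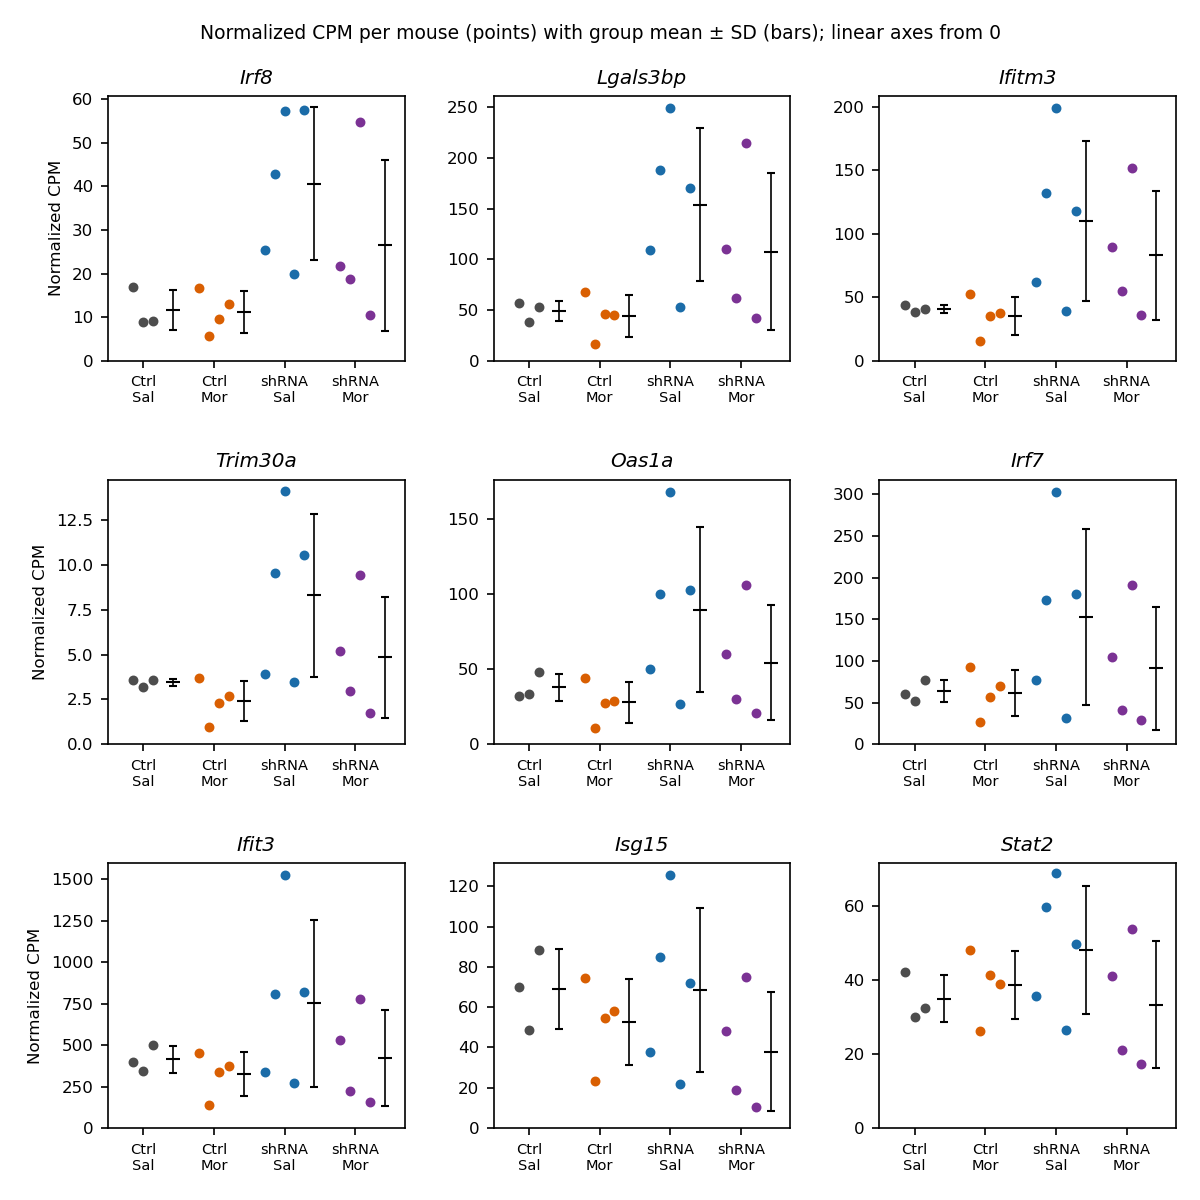
Normalized CPM (vertical axes, linear and starting at 0) of 9 members in each mouse (points) of the 4 groups (horizontal axis, Sal for saline and Mor for morphine), with the group mean ± SD beside them. Irf8 shows no overlap of the viruses under saline (8.88 to 16.9 against 19.8 to 57.6 CPM), whereas Isg15 and Stat2 overlap in every comparison. The share of all tested genes without overlap was not computed.

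Of the 9 modifiers and other proteins, Lgals3bp passed under saline and Trim30a on the average over treatments. Lgals3bp, a secreted glycoprotein that binds galectins, was at 56.8, 37.8 and 52.7 CPM in the Ctrl + Saline mice and 67.8, 16.6, 46.4 and 44.9 CPM in the Ctrl + Morphine mice. With the hairpin Lgals3bp was at 109, 188, 249.5, 52.6 and 170.3 CPM in the Kdm7a-shRNA + Saline mice and 110.3, 61.4, 215 and 42.1 CPM in the Kdm7a-shRNA + Morphine mice. Its lowest Kdm7a-shRNA + Saline mouse lay within the Ctrl + Saline range and the other 4 above it. The log2 fold change was 1.65 ± 0.526 under saline (adjusted p = 0.0346), 1.29 ± 0.485 under morphine (adjusted p = 0.102) and 1.47 ± 0.358 on average (adjusted p = 0.00554). Under saline the call of Lgals3bp was lost when known genes only were tested (adjusted p = 0.0577) and held in 2 of 8 fits with a mouse omitted. Trim30a, a tripartite-motif protein, was at 3.57, 3.22 and 3.58 CPM in the Ctrl + Saline mice and 3.69, 0.960, 2.31 and 2.67 CPM in the Ctrl + Morphine mice. With the hairpin Trim30a was at 3.91, 9.56, 14.1, 3.49 and 10.6 CPM in the Kdm7a-shRNA + Saline mice and 5.21, 2.998, 9.45 and 1.74 CPM in the Kdm7a-shRNA + Morphine mice, with a log2 fold change of 1.27 ± 0.517 under saline (adjusted p = 0.0908) and 1.15 ± 0.363 on average (adjusted p = 0.0247). The averaged call of Trim30a held in 13 of 16 fits with a mouse omitted.

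Isg15, the ubiquitin-like protein that is joined to other proteins during the response, did not pass in any comparison, and its groups overlapped throughout. It was at 69.9, 48.8 and 88.4 CPM in the Ctrl + Saline mice and 74.4, 23.4, 54.5 and 58.0 CPM in the Ctrl + Morphine mice. With the hairpin Isg15 was at 37.8, 84.8, 126, 21.9 and 72.3 CPM in the Kdm7a-shRNA + Saline mice and 48.0, 18.8, 74.9 and 10.2 CPM in the Kdm7a-shRNA + Morphine mice. The log2 fold change was -0.01 ± 0.540 under saline (adjusted p = 0.992) and -0.46 ± 0.529 under morphine (adjusted p = 0.633).

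The 7 GTPases and peptide transporters had the smallest median of the 5 role groups under saline, a log2 fold change of 0.06 (-0.14 to 0.83), and 0 passed. They were Gbp2, Gbp3, Gbp7, Igtp and Irgm1, GTPases that act against pathogens inside cells, and Tap1 and Tap2, which load peptides for MHC class I. Tap1 was at 7.14, 5.95 and 3.71 CPM in the Ctrl + Saline mice and 11.7, 1.60, 5.60 and 7.49 CPM in the Ctrl + Morphine mice. With the hairpin Tap1 was at 7.01, 10.5, 11.0, 3.49 and 7.74 CPM in the Kdm7a-shRNA + Saline mice and 9.65, 5.28, 11.9 and 3.22 CPM in the Kdm7a-shRNA + Morphine mice, with a log2 fold change of 0.50 ± 0.493 under saline (adjusted p = 0.503). Whether the role groups differed was not tested.

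The count under saline depended on single mice. It was 0 of 39 without Ctrl + Saline mouse 2 or mouse 3, 1 (Irf8) without Ctrl + Saline mouse 1 or Kdm7a-shRNA + Saline mouse 2, 3 or 5, and 6, with Trim30a and Oas1a among them, without Kdm7a-shRNA + Saline mouse 4, the mouse lowest in members and in microglial markers. With the microglial average as a covariate, an alternative chosen after seeing the data, 0 members passed as higher and 14 as lower under saline, and the median log2 fold change went from 0.65 to -0.93. The share of all tested genes that passed for the knockdown in that fit is not given, here or for the comparisons below. The same holds for the fits with a mouse omitted, so that their counts do not set the members apart. Whether the move to lower was particular to the members was not tested. In that fit all 39 members rose with the covariate at an adjusted p under 0.05, against 3235 of all tested genes. Within each treatment the viruses did not overlap in the microglial average, so that this fit compares them at marker levels that no mouse of one of the viruses had under that treatment, and there the knockdown and the marker level cannot be told apart. Across treatments they overlapped, with Kdm7a-shRNA + Morphine mouse 4 (-0.52) below Ctrl + Saline mice 1 (-0.49) and 3 (-0.35).

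The knockdown under morphine was read from Kdm7a-shRNA + Morphine against Ctrl + Morphine. Here 0 of 39 members passed, against 7.69% of all tested genes, and DESeq2 and edgeR's exact test also gave 0 members, against 9.01% and 9.72%. At an unadjusted p under 0.05 there were 3 of 39, against 25.5% of all tested genes. They were Irf8, Ifitm3 and Lgals3bp, with values given above, the 3 that passed the stricter threshold under saline. At the unadjusted threshold 8 of 39 members were called under saline, against 6536 of the 18826 tested genes. The median log2 fold change was 0.27 (-0.93 to 1.29), and 30 of 39 members were above 0, against 49.6% of all tested genes. The median was -0.14 without Kdm7a-shRNA + Morphine mouse 3, 0.04 without Ctrl + Morphine mouse 2 and 0.53 without Ctrl + Morphine mouse 1, and it was 0.13, 0.42 and 0.48 without Kdm7a-shRNA + Morphine mouse 1, 2 and 4. Without Kdm7a-shRNA + Morphine mouse 4, the lowest of its group for 36 members, these 3 genes passed, and with the microglial covariate 19 members passed as lower (median -1.17).

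Averaged over saline and morphine, 5 of 39 members rose with the knockdown, Irf8, Lgals3bp, Ifitm3, Trim30a and Oas1a, and 0 fell, against 17.6% of all tested genes in either direction and 7.68% as higher. The median log2 fold change was 0.46 (-0.41 to 1.53), and 36 of 39 members were above 0, against 51.2% of all tested genes. With a mouse omitted the median was 0.26 to 0.58, the lowest without Kdm7a-shRNA + Morphine mouse 3. Irf8, Lgals3bp and Ifitm3 passed in each of 16 fits with a mouse omitted. The count was 3 without Ctrl + Saline mouse 2, Ctrl + Saline mouse 3 or Kdm7a-shRNA + Morphine mouse 3, 9 without Kdm7a-shRNA + Morphine mouse 4 and 10 without Kdm7a-shRNA + Saline mouse 4. No share of all tested genes stands beside these counts, so that whether the members moved more than other genes was not tested. With the microglial covariate, 0 passed as higher and 22 as lower (median -1.06).

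**Figure D4:**
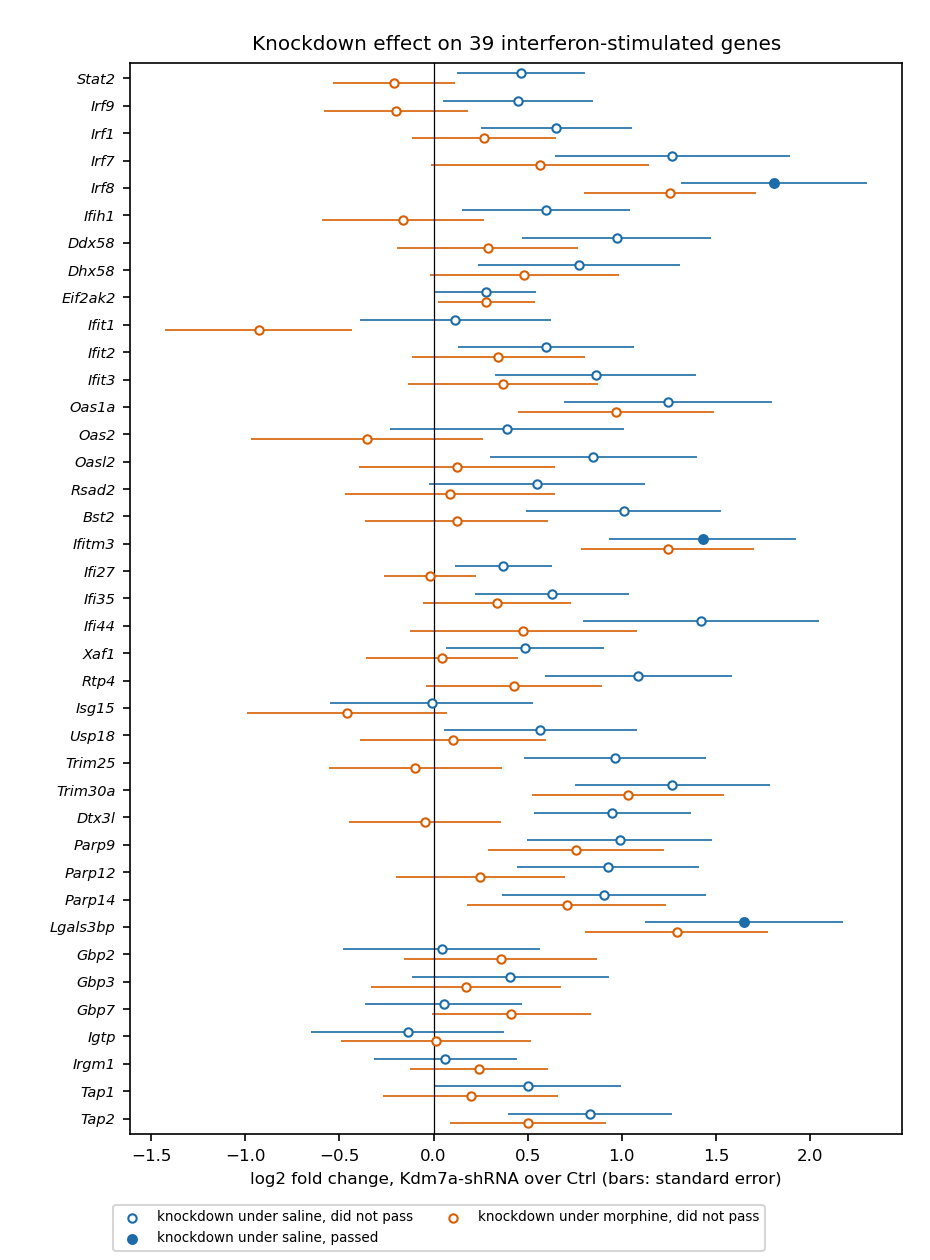
log2 fold change of Kdm7a-shRNA over Ctrl (horizontal axis) for each of the 39 members (vertical axis, ordered by role) under saline (blue) and under morphine (orange), with bars of 1 standard error; filled points passed the test. Irf8 (1.81), Lgals3bp (1.65) and Ifitm3 (1.43) are the filled points, and no point under morphine is filled.

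Morphine under the control virus was followed in Ctrl + Morphine against Ctrl + Saline. No member passed in edgeR's quasi-likelihood test, in which 0% of all genes passed, and 0 of 39 had an unadjusted p under 0.05, against 11.7% of all tested genes. DESeq2 and the exact test gave 0 members, against 1.01% and 0.861%. The median log2 fold change was -0.14 (-0.84 to 0.32), and it was 0.13 without Ctrl + Morphine mouse 2, the lowest of its group for 38 members, and -0.32 without Ctrl + Morphine mouse 1. It was 0.17 with the microglial covariate. Gbp7, singled out after its values were seen, was the member whose groups did not overlap, with 9.01 to 12.8 CPM in the Ctrl + Saline mice and 4.05 to 8.49 CPM in the Ctrl + Morphine mice (-0.84 ± 0.447, adjusted p = 0.486). The share of all tested genes without overlap in this comparison was not computed. The lack of overlap therefore does not set Gbp7 apart.

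Morphine under the knockdown was followed in Kdm7a-shRNA + Morphine against Kdm7a-shRNA + Saline. All 39 log2 fold changes were below 0 (-1.28 to -0.06, median -0.59), against 50.8% of all tested genes, and 0 members passed, against 0.00531% of all genes. DESeq2 and the exact test gave 0 members, against 0.138% and 0.0797%. At an unadjusted p under 0.05 there were 3 of 39, against 7.02% of all tested genes: Ifit1 (-1.28 ± 0.481, adjusted p = 0.661), Ifi27 (-0.55 ± 0.235, adjusted p = 0.703) and Dtx3l (-0.82 ± 0.373, adjusted p = 0.705), the last named after its values were seen. Because the members vary together between mice, 39 like signs are not 39 independent results, and all 14 microglial markers were below 0 in the same comparison (median -0.46). The median was -0.36 without Kdm7a-shRNA + Saline mouse 3 and -1.004 without Kdm7a-shRNA + Morphine mouse 3, and it was -0.00546 with the microglial covariate.

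Whether the knockdown acted differently under morphine was asked by the interaction of virus and treatment. No member passed, against 0.085% of all tested genes, and 0 of 39 had an unadjusted p under 0.05, against 10.7%. DESeq2 gave 0 members, against 1.21%. The median was -0.44 (-1.06 to 0.36) on the log2 scale, with 34 of 39 members below 0, against 49.4% of all tested genes. The standard errors ran wide, as for Irf8 (-0.55 ± 0.653, adjusted p = 0.833) and Ifit1 (-1.04 ± 0.713, adjusted p = 0.646). The median was -0.16 without Kdm7a-shRNA + Saline mouse 3, and -0.28, -0.96 and -0.17 without Kdm7a-shRNA + Morphine mouse 2, 3 and 4. It was -0.23 and -0.69 without Ctrl + Morphine mouse 1 and 2, -0.69 with the replicate number as a block and -0.16 with the microglial covariate.

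Other genes of the pathway, taken from 2 lists outside the members, gave these counts. Of 33 genes for interferon ligands, receptors and signalling, 30 were in the table and 27 could be tested. Ifnb1 and Ifng, the genes of interferon beta and gamma, and Socs1 were too low for the test. Under saline 7 of the 27 rose with the knockdown, against 7.43% of all tested genes as higher, and 0 fell. By adjusted p they were led by Pias4, a SUMO ligase (1.62 ± 0.323, adjusted p = 0.00298), the receptor chain Ifnar2 (1.80 ± 0.363, adjusted p = 0.00320), Stat3 (0.92 ± 0.226, adjusted p = 0.00936), Tlr3, an endosomal receptor of double-stranded RNA (1.74 ± 0.429, adjusted p = 0.00989), the interferon gamma receptor chain Ifngr1 (0.80 ± 0.249, adjusted p = 0.0314) and Irf3 (0.59 ± 0.195, adjusted p = 0.0421). Ifnar1 (-0.13 ± 0.202), named after its values were seen, did not pass. Under morphine Tlr3 alone of the 27 passed with the knockdown (1.29 ± 0.392, adjusted p = 0.0465), against 7.69% of all tested genes in either direction, and 10 rose on average, against 7.68% as higher.

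Of 48 further interferon targets, 47 were in the table and 46 could be tested. Under saline 8 rose with the knockdown, against 7.43% of all tested genes as higher, and 0 fell. They were led by Tapbp, which joins the peptide transporter to MHC class I (1.26 ± 0.346, adjusted p = 0.0169), Trim12a (1.30 ± 0.377, adjusted p = 0.0224), Oas1g, a close paralog of Oas1a (2.09 ± 0.611, adjusted p = 0.0230), Nmi (1.00 ± 0.295, adjusted p = 0.0236), the nuclear body protein Sp100 (1.68 ± 0.511, adjusted p = 0.0275) and Trim34a (1.5 ± 0.476, adjusted p = 0.0338). Under morphine Trim12a alone of the 46 passed (1.42 ± 0.358, adjusted p = 0.0210), against 7.69% of all tested genes, and 13 rose on average, against 7.68% as higher. Neither list held a gene that passed with morphine under either virus or in the interaction. The medians of the 46 targets were 0.82 under saline and 0.61 under morphine, beside 0.65 and 0.27 for the members.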

How the data were processed

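RNA from the mPFC of 16 mice was sequenced as nanopore cDNA. The authors kept reads of quality 7 or more and at least 500 bp, removed ribosomal RNA reads, aligned with minimap2 to mm10, assembled further loci, and deposited counts per gene, with reads assigned at a match quality over 5; edgeR 3.8.6 is named in the submitters' processing notes. The deposited table also held CPM per gene, computed by the authors from these counts, which were not used for tests. Long reads leave out short transcripts, and the assembled loci (4382 of those tested) take part in the adjustment of p-values.

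Tests were run on these counts with edgeR 4.0.16 (R 4.3.3), using TMM factors, filterByExpr on the 4 groups, and 1 quasi-likelihood fit of all 16 mice with a coefficient per group, as the study's methods name edgeR and the same thresholds. Of 26625 genes, 18826 were tested. The 6 comparisons were the knockdown under each treatment and averaged, morphine under each virus, and the interaction. SE is the log2 fold change over the root of F. Log2 CPM used a prior count of 2. DESeq2 1.42.0, edgeR's exact test, other scalings and filters, known genes only, a replicate block, each mouse left out, and a microglial covariate (chosen after seeing the data) were alternatives. The fit was also run on simulated data, in which genes varied independently and with a common spread below that of every member. That run does not show how the fit performs on the members, which vary together. Positions were from GENCODE (GRCm38), promoters from RefSeq.

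The members, the lists and the tests were chosen with earlier results of these data known. Values in every mouse are given for members that passed in a comparison, for fixed anchors of the pathway and for the 3 members of highest mean CPM; of the other pathway lists, at most 6 genes that passed are named. Some genes of these lists are not reported here by name.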

Additional observations from a re-analysis of the deposited data

Results flagged for a closer look

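Ifi27 in Ctrl + Morphine mouse 2 was at 361 CPM, against 676 to 741 CPM in the other Ctrl + Morphine mice, so that this mouse stood apart from its group (gap over range 0.830). It was 1 of 54 groups of values examined in this way, and chance alone picks out about 5% of such groups. The same mouse was the lowest of its group for 38 of 39 members.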

How the results depend on the processing

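The counts of members with morphine under either virus and in the interaction were 0 under every alternative run. The count for the knockdown under saline was 1 when known genes only were tested, where Lgals3bp (adjusted p = 0.0577) and Ifitm3 (0.0790) lost their calls, and it was 0 to 6 when each mouse was left out in turn. The count was 0 to 3 for the knockdown under morphine and 3 to 10 for the average over treatments with a mouse left out. The share of all tested genes in the fits with a mouse left out is not given. DESeq2 gave the same 3 members under saline and the same 5 on average, against 17.8% and 17.9% of all tested genes.

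The microglial covariate moved the counts to 14 under saline, 19 under morphine and 22 on average, all lower, and the medians to -0.93, -1.17 and -1.06. No share of all tested genes stands beside these counts. Under saline it gave Lgals3bp -0.30, Ifitm3 -0.49, Trim30a -0.66 and Oas1a -0.93, with Irf8 at 0.09. Under morphine it gave Irf8 -0.30, Lgals3bp -0.37, Ifitm3 -0.29, Trim30a -0.66 and Oas1a -0.80, and on average Irf8 -0.10, Lgals3bp -0.34, Ifitm3 -0.39, Trim30a -0.66 and Oas1a -0.86. For morphine under the knockdown it gave Lgals3bp 0.10, Ifitm3 0.28 and Oas1a 0.035. The cause was not tested.

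Other changes of sign were those of members that had not passed in the same comparison. With library size alone, Ifit1 was at -0.036 under saline, Bst2 at -0.00676 under morphine, and Stat2 (-0.00103) and Irf9 (-0.00726) on average; this scaling moved the median of all genes from 0.01 to -0.12 under saline, and to -0.11 under morphine and on average. With a mouse left out, the knockdown under saline ran from -0.25 to 0.34 for Ifit1 and from -0.35 to 0.22 for Isg15. Under morphine it ran from -0.55 to 0.00414 for Stat2, -0.52 to 0.042 for Irf9, -0.088 to 0.54 for Irf1, -0.10 to 0.86 for Irf7, -0.11 to 0.64 for Ifit3, -0.44 to 0.19 for Ifih1, -0.42 to 0.38 for Bst2, -0.14 to 0.63 for Tap1 and -0.21 to 0.12 for Ifi27. On average it ran from -0.041 to 0.23 for Stat2 and -0.036 to 0.24 for Irf9, and Tap1 with morphine under the knockdown from -0.41 to 0.18.

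Whether the replicate numbers pair the mice is not settled here. Over 21 pairs of mice with the same number, the correlation of their deviations from the group means ran from -0.10 to 0.39 (median 0.01). Of these pairs, 6 were over 0.1, and pairs with different numbers are not given beside them. In both Kdm7a-shRNA groups mouse 3 was the highest and mouse 4 the lowest for most members. A factor shared by mice of the same number was not tested. A fit with the replicate number as a block gave 4 members for the knockdown under saline, 0 under morphine and 6 on average, with Isg15 at 0.12 under saline and Bst2 at -0.11 under morphine, and a median of 0.09 for morphine under the control virus. With 3 to 5 mice a group, the within-group SD of the members on the log2 scale had a median of 0.799 (0.403 to 1.11); how small a change of the members these counts could show was not tested.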
